A study of Homo sapiens with 9 samples.

Results

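CAV1, CAV2, CAVIN1, CAVIN3 and EHD2, which encode the caveolins, cavins and neck ATPase of the caveola, were followed across 9 arrays of cultured colorectal cancer cells. These 5 genes, of 19775 that the array annotation names singly, were chosen by symbol with their log2 signals in the 3 groups already known. Every probe set annotated to exactly 1 of them was taken, which gave 12 of the 54675 on the array: 2 for CAV1, 3 for CAV2, 3 for CAVIN1, 1 for CAVIN3 and 3 for EHD2. All 12 lay above the array median on all 9 arrays, and so all 12 passed the filter on dim probe sets. Because of this choice, levels and differences of the 12 probe sets are given as a description. Counts of limma calls among them are set beside those of the whole array, and nothing is read from them.

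Caveolae are small pits of the plasma membrane, built from caveolins that are inserted in the membrane, a peripheral coat of cavins, and the ATPase EHD2 at the neck of the pit. Outside muscle, CAV1 (caveolin-1) is needed for a caveola to form, CAV2 (caveolin-2) depends on CAV1 to reach the cell surface, and CAVIN1 drives the assembly of the coat and stabilises caveolin-1. CAVIN3 belongs to the same coat and binds protein kinase C delta, while EHD2 holds caveolae at the surface. These pits are abundant in endothelial cells, adipocytes, muscle and fibroblasts, and take part in lipid handling, endocytosis and the buffering of membrane tension.

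SCP51 is a line grown from 1 cell of SW480/EGFP that metastasised often after orthotopic surgical implantation in mice. SCP58 was grown from another single cell and metastasised rarely, and SW480/EGFP is the population both came from, a human colorectal carcinoma line that carries EGFP, as do both lines. Each group had 3 arrays labelled as biological replicates, and all cells were kept in RPMI medium with fetal bovine serum. Each metastatic class is 1 clone, so differences are between lines. The labels do not tell how separate the replicate cultures were, so the spread and the p-values given measure only the variation between these arrays.

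The signal is the linear array intensity as deposited, with array medians from 41.1 to 44.3. SCP51 replicate 1 stood apart: its correlation with the other arrays across genes was 0.891 to 0.911, against 0.945 to 0.979 among the other 8, and genes are not independent replicates. Its ratio of the 3′ to the 5′ GAPDH control probe set was 0.761, against 0.894 to 0.957 on the other arrays, while the same ratio for actin (0.938 to 1.16 over all arrays) did not set it apart. For the 12 probe sets, values without that array are given where they differ by over 1.5 times, and for some others. Over all 29166 probe sets tested, limma called 976 between SCP51 and SCP58 at an adjusted p under 0.05, 443 higher (1.52%) and 533 lower (1.83%) in SCP51, against 661 and 458 after quantile normalization. Without SCP51 replicate 1 these were 1062 and 906, and without SCP51 replicate 3 they were 176 and 572. SCP51 against SW480/EGFP gave 552 calls, 271 higher (0.929%) and 281 lower (0.963%), against 410 and 257 after quantile normalization, 509 and 477 without SCP51 replicate 1, and 158 and 509 without SCP51 replicate 3. SCP58 against SW480/EGFP gave 39, 15 higher (0.0514%) and 24 lower (0.0823%).

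The lines had an epithelial profile. The keratins KRT18 and KRT8 averaged signals of 6306 and 5498 over the 9 arrays, and 8 of 10 colon epithelial markers passed the filter (KRT20 and LGALS4 did not), with a summed signal of 18930 to 24508 in SCP51, 19251 to 21171 in SCP58 and 20007 to 21026 in SW480/EGFP. CDX2, CEACAM5 and VIL1 passed it but were dim, no brighter than the fibroblast marker COL1A1 (151 over the 9 arrays). They averaged 51.4, 61.3 and 115 in SCP51, 50.7, 56.5 and 115 in SCP58, and 53.0, 52.4 and 119 in SW480/EGFP. Markers of cells rich in caveolae, and those of leukocytes, were also dim. Of 8 fibroblast markers 2 passed the filter (COL1A1 and DCN), with sums of 328 to 388 in SCP51, 345 to 392 in SCP58 and 393 to 428 in SW480/EGFP. Of 8 endothelial markers 3 passed, with sums of 279.7 to 394 in SCP51, 320.0 to 372 in SCP58 and 308 to 365 in SW480/EGFP. Sums for 8 adipocyte and muscle markers (4 passed) were 286 to 377 in SCP51, 280.3 to 403 in SCP58 and 284 to 374 in SW480/EGFP. Those for 5 leukocyte markers (2 passed) were 157 to 209 in SCP51, 173 to 197 in SCP58 and 170.5 to 211 in SW480/EGFP. No marker was at 0 on all arrays. The part of these cells in the levels below was not tested.

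CAV1 and CAV2 are neighbours on chromosome 7, and the 5 probe sets of the 2 genes placed the lines in 1 order, so the sequences before their starts are shown. Each is the 250 bases that precede the first annotated start in RefSeq (build GRCh38.p14), with capitals marking the GC box GGGCGG on either strand.
CAV1 promoter, chr7:116524759-116525008, + strand: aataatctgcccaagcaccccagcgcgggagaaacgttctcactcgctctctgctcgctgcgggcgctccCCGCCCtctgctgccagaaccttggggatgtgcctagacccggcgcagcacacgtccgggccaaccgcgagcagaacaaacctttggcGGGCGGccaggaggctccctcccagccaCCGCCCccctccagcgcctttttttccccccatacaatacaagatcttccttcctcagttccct
CAV2 promoter, chr7:116499488-116499737, + strand: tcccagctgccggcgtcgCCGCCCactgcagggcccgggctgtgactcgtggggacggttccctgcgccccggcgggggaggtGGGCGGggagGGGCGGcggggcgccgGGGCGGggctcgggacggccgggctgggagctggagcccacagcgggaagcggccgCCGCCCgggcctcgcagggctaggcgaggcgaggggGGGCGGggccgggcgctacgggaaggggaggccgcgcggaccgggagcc
The windows begin 25271 bases apart. The CAV1 window holds 3 GC boxes and the CAV2 window 6, with none overlapping, and GGGCGG occurs in 42.6% of all 35114 windows of this length. Their GC content was 63.6% for CAV1 and 83.2% for CAV2, against a median of 58% over all windows. Neither window held the TEAD motif GGAATG on either strand, which 11.9% of all windows hold. The AP-1 motif TGACTCA, held by 4.2% of all windows, was also not found. Nor was the E-box CACGTG, held by 6.35% of all windows, or the TATA box TATAAA, held by 10.7%. The window before EHD2, on chromosome 19, had 1 GC box and a GC content of 69.6%, and held none of these other motifs. These matches describe the letters and not the binding of a factor.

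CAV1, the scaffold of the caveola, had bright signals in every line. On probe set 203065_s_at it had signals of 2620.3, 3127 and 3136 in SCP51, 3563, 3242 and 3555 in SCP58, and 2293, 2556 and 1879 in SW480/EGFP. All 3 SCP58 arrays lay above all 3 SCP51 arrays, and these lay above all 3 SW480/EGFP arrays. The mean log2 signal was 11.53 ± 0.15 in SCP51, 11.75 ± 0.08 in SCP58 and 11.12 ± 0.23 in SW480/EGFP (SD, n = 3 each). That put SCP58 1.55-fold above SW480/EGFP, with a log2 difference of 0.63 ± 0.12 (SE), and SCP51 1.33-fold above it, at 0.41 ± 0.12. Between the lines, SCP51 stood at -0.23 ± 0.12 relative to SCP58, and at -0.14 without SCP51 replicate 1.

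The other CAV1 probe set, 212097_at, gave 2341, 3672 and 3432 in SCP51, 3209, 3565 and 4060.0 in SCP58, and 2486, 2745 and 2376 in SW480/EGFP. SCP58 again lay wholly above SW480/EGFP, at 0.51 ± 0.17. SCP51 overlapped both groups: replicate 1 lay below all 3 SW480/EGFP arrays, and replicates 2 and 3 lay within the range of SCP58. The log2 difference between SCP51 and SW480/EGFP was 0.29 ± 0.17, and 0.49 without SCP51 replicate 1, when the groups no longer overlapped. Between SCP51 and SCP58 it was -0.22 ± 0.17, and -0.02 without that replicate, so that on this probe set the 2 remaining SCP51 arrays were level with SCP58. In these bulk samples a larger share of cells with CAV1 RNA and more CAV1 RNA per cell cannot be told apart.

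CAV2, the partner of caveolin-1, separated the lines with little spread on probe set 203324_s_at. Its signals were 1679, 1601 and 1569 in SCP51, 1939.7, 1912 and 2037 in SCP58, and 1140.5, 1177 and 1099.8 in SW480/EGFP. The 3 groups did not overlap, with mean log2 signals of 10.66 ± 0.05 in SCP51, 10.94 ± 0.05 in SCP58 and 10.15 ± 0.05 in SW480/EGFP (SD, n = 3 each). SCP58 was 1.72-fold above SW480/EGFP, a log2 difference of 0.79 ± 0.08 (SE), and SCP51 1.42-fold above it, at 0.50 ± 0.08. SCP51 stood at -0.28 ± 0.08 relative to SCP58, and at -0.31 without SCP51 replicate 1.

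Probe set 213426_s_at of CAV2 was dim but kept the order of the lines. It gave 67.8, 87.6 and 69.5 in SCP51, 93.3, 82.9 and 91.0 in SCP58, and 53.9, 62.7 and 46.8 in SW480/EGFP. Both lines lay wholly above SW480/EGFP, at 0.46 ± 0.15 for SCP51 and 0.72 ± 0.15 for SCP58, while SCP51 overlapped SCP58 (-0.26 ± 0.15, and -0.19 without SCP51 replicate 1). On the third probe set, 203323_at, the signals were 364, 657 and 691 in SCP51, 802, 633 and 678 in SCP58, and 624, 461 and 562 in SW480/EGFP. There SCP58 lay above SW480/EGFP (0.36 ± 0.25), and SCP51 differed from SW480/EGFP by 0.01 ± 0.25, or 0.31 without replicate 1, which was the lowest of the 9 arrays. Relative to SCP58, SCP51 stood at -0.35 ± 0.25, and at -0.06 without that replicate.

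**Figure D1:**
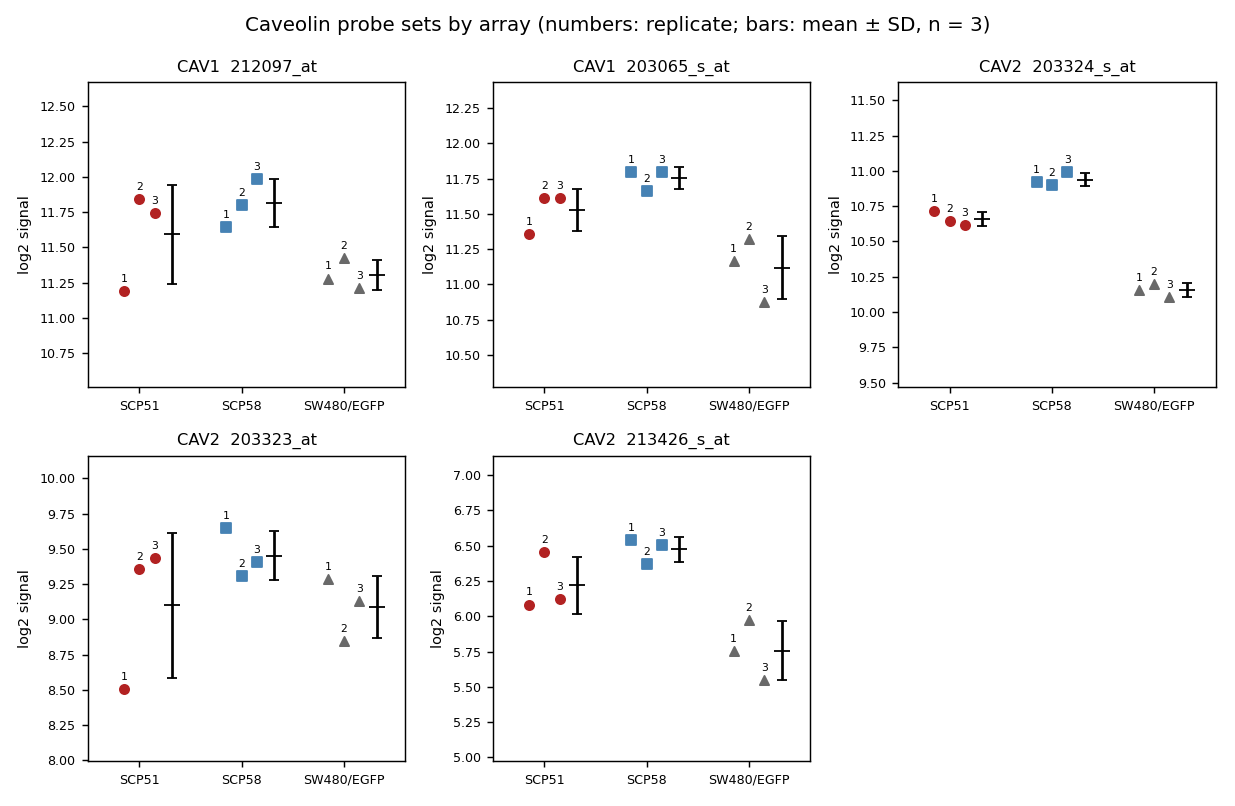
Log2 signal of the 5 CAV1 and CAV2 probe sets on each array, with the replicate number over each point and the mean ± SD (n = 3) at its right, for SCP51, SCP58 and SW480/EGFP. SCP58 lies above SW480/EGFP without overlap on all 5 probe sets, and SCP51 replicate 1 lies low on 212097_at and 203323_at.

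By group means, all 5 caveolin probe sets were highest in SCP58, next in SCP51 and lowest in SW480/EGFP. SCP58 exceeded SW480/EGFP on all 5 in every alternative setting tried (16 or 17 for each probe set), and SCP51 lay below SCP58 on all 5 in every setting, by as little as -0.02 for CAV1. In many of these settings the sign was fixed in advance. Those that change only the filter or the fit, or drop an array of the group not compared, leave a difference as it was. The step between SCP51 and SW480/EGFP kept its sign for both CAV1 probe sets and for 2 of the 3 of CAV2. The exception was 203323_at, whose value ranged down to -0.16.

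CAVIN1, which assembles the caveolar coat, had another order, with SCP51 highest by group mean on all 3 probe sets. On the brightest, 208789_at, the signals were 1009, 1336 and 1259 in SCP51, 940.4, 934 and 984 in SCP58, and 732, 898 and 734 in SW480/EGFP. The groups did not overlap, and mean log2 signals were 10.22 ± 0.21 in SCP51, 9.90 ± 0.04 in SCP58 and 9.62 ± 0.17 in SW480/EGFP (SD, n = 3 each). SCP51 was 1.52-fold above SW480/EGFP, a log2 difference of 0.60 ± 0.14 (SE; 0.73 without SCP51 replicate 1). It stood 1.25-fold above SCP58, at 0.32 ± 0.14 (0.45 without that replicate), and SCP58 differed from SW480/EGFP by 0.28 ± 0.14.

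Probe set 208790_s_at of CAVIN1 gave 198, 236 and 218 in SCP51, 132, 192 and 179.7 in SCP58, and 161, 200.5 and 167 in SW480/EGFP. SCP51 lay above SCP58 without overlap (0.39 ± 0.17) and overlapped SW480/EGFP (0.31 ± 0.17). Probe set 1557938_s_at gave 237, 563 and 637 in SCP51, 382, 426 and 311 in SCP58, and 298, 426 and 382 in SW480/EGFP. Here SCP51 replicate 1 was the lowest of the 9 arrays and the other 2 SCP51 arrays the highest. SCP51 stood at 0.25 ± 0.35 relative to SCP58 with all arrays, at 0.69 without replicate 1 and at -0.02 without replicate 3. Relative to SW480/EGFP it stood at 0.27 ± 0.35, and at 0.72 without replicate 1. SCP58 and SW480/EGFP overlapped on this probe set and on 208790_s_at.

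CAVIN3, the protein kinase C delta binding cavin, was measured by 1 dim probe set, 213010_at. Its signals were 64.9, 55.5 and 60.9 in SCP51, 75.4, 78.0 and 76.6 in SCP58, and 60.0, 107 and 59.2 in SW480/EGFP. SCP51 lay wholly below SCP58, at -0.35 ± 0.21, and SW480/EGFP overlapped both because its replicate 2 was the highest of all and the other 2 lay among the SCP51 arrays. Without that replicate SCP51 stood at 0.02 relative to SW480/EGFP, against -0.26 ± 0.21 with it.

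EHD2, the ATPase at the caveolar neck, differed little. On 221870_at its signals were 146, 140.1 and 169 in SCP51, 165, 139 and 145 in SCP58, and 142, 161 and 161 in SW480/EGFP, and all groups overlapped. The log2 differences were 0.02 ± 0.13 for SCP51 relative to SCP58, -0.03 ± 0.13 for SCP51 relative to SW480/EGFP (0.04 and -0.0047 without SCP51 replicate 1) and -0.05 ± 0.13 for SCP58 relative to SW480/EGFP. Probe set 45297_at ranged from 118 to 147 in SCP51, from 114 to 171 in SCP58 and from 138 to 149 in SW480/EGFP, also with overlap. The third, 205341_at, ranged from 52.1 to 62.9 in SCP51, from 57.5 to 66.1 in SCP58 and from 63.0 to 67.5 in SW480/EGFP, so that SCP51 lay just below SW480/EGFP, at -0.22 ± 0.11. SW480/EGFP had the highest group mean on all 3 EHD2 probe sets, but relative to it the sign for SCP58 turned in at least 1 setting on each of them.

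**Figure D2:**
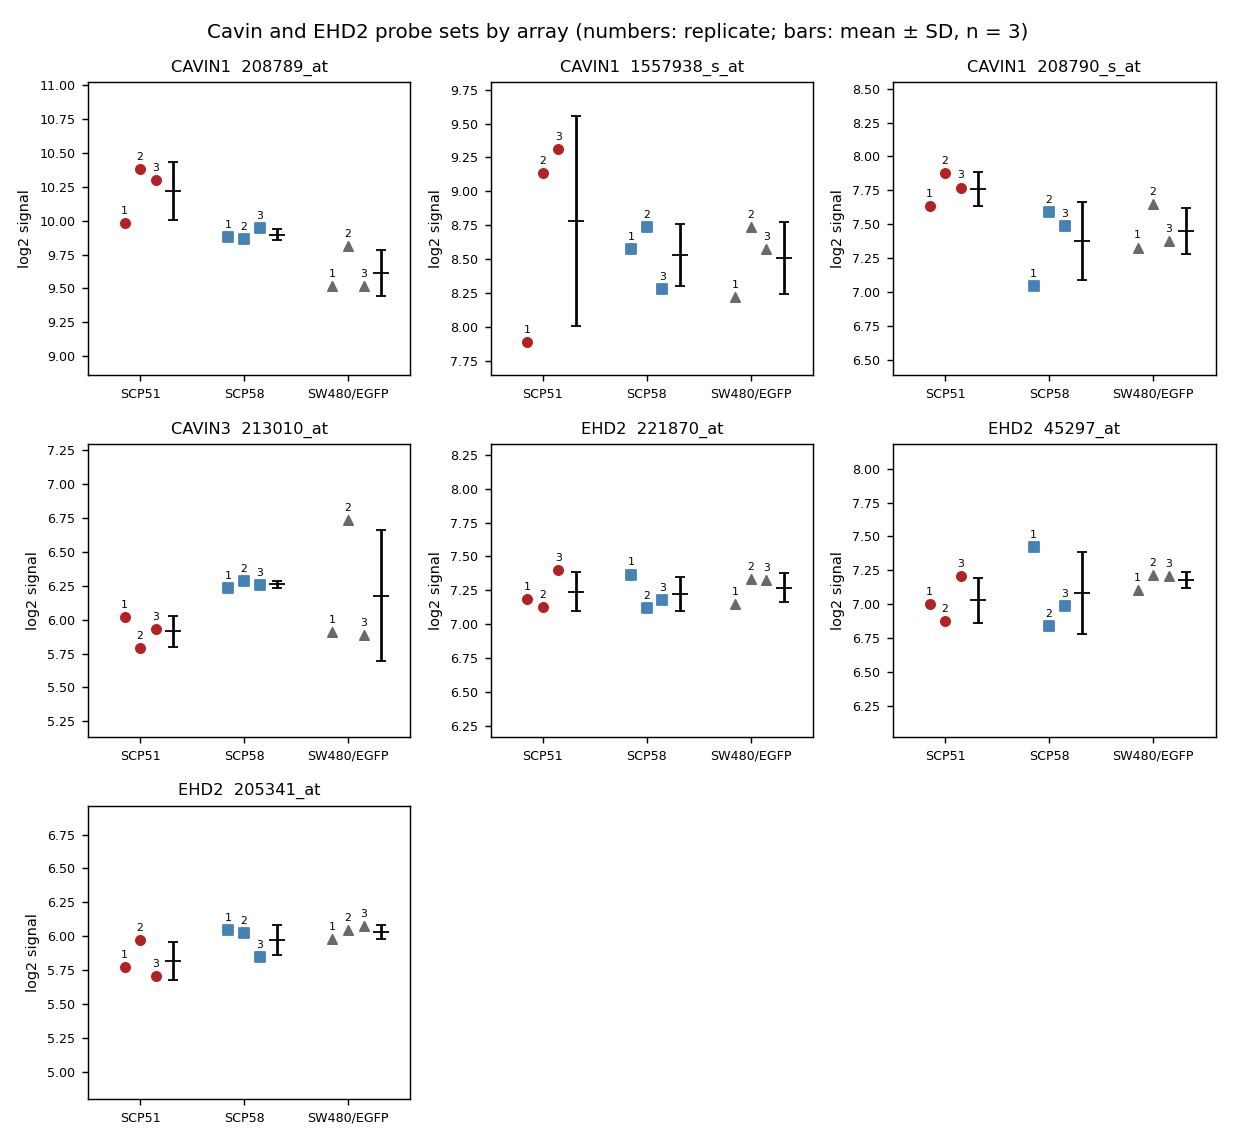
Log2 signal of the 3 CAVIN1, 1 CAVIN3 and 3 EHD2 probe sets on each array, with the replicate number over each point and the mean ± SD (n = 3) at its right, for SCP51, SCP58 and SW480/EGFP. The 3 groups separate on CAVIN1 208789_at, SCP51 lies below SCP58 on CAVIN3, and the EHD2 groups overlap on 221870_at and 45297_at.

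Counts over the 12 probe sets were set beside the same counts over the whole array, as a description. Between SCP51 and SCP58, 0 of the 12 were called by limma, against 3.35% of all probe sets tested, and 2 of them had an unadjusted p under 0.05, against 19.5%. The groups did not overlap for 5 of the 12, 2 higher (CAVIN1) and 3 lower (1 each of CAV1, CAV2 and CAVIN3) in SCP51. Of all probe sets, 23.2% did not overlap, 8.94% higher and 14.3% lower. Without SCP51 replicate 1, 6 of the 12 did not overlap. Between SCP51 and SW480/EGFP, 1 of the 12 was called (CAV2 203324_s_at, higher), against 1.89% called and 0.929% called higher, and 4 had an unadjusted p under 0.05, against 17.5%. There 5 did not overlap, 4 higher and 1 lower, against 26.1% of all probe sets, 9.63% higher and 16.4% lower. Without SCP51 replicate 1, 9 did not overlap and 3 were called, among them CAVIN1 208789_at and CAV1 212097_at. Without SCP51 replicate 2 or any 1 of the 3 SW480/EGFP replicates, 0 were called. Between SCP58 and SW480/EGFP, 1 of the 12 was called (again CAV2 203324_s_at, higher), against 0.134% called and 0.0514% called higher, and 4 had an unadjusted p under 0.05, against 8.45%. There 6 did not overlap, 6 higher and 0 lower in SCP58, against 16.3% of all probe sets, 8.07% higher and 8.26% lower. That call was lost without any 1 of the SW480/EGFP replicates and without SCP58 replicate 3. Both comparisons with SW480/EGFP share its 3 arrays.

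**Figure D3:**
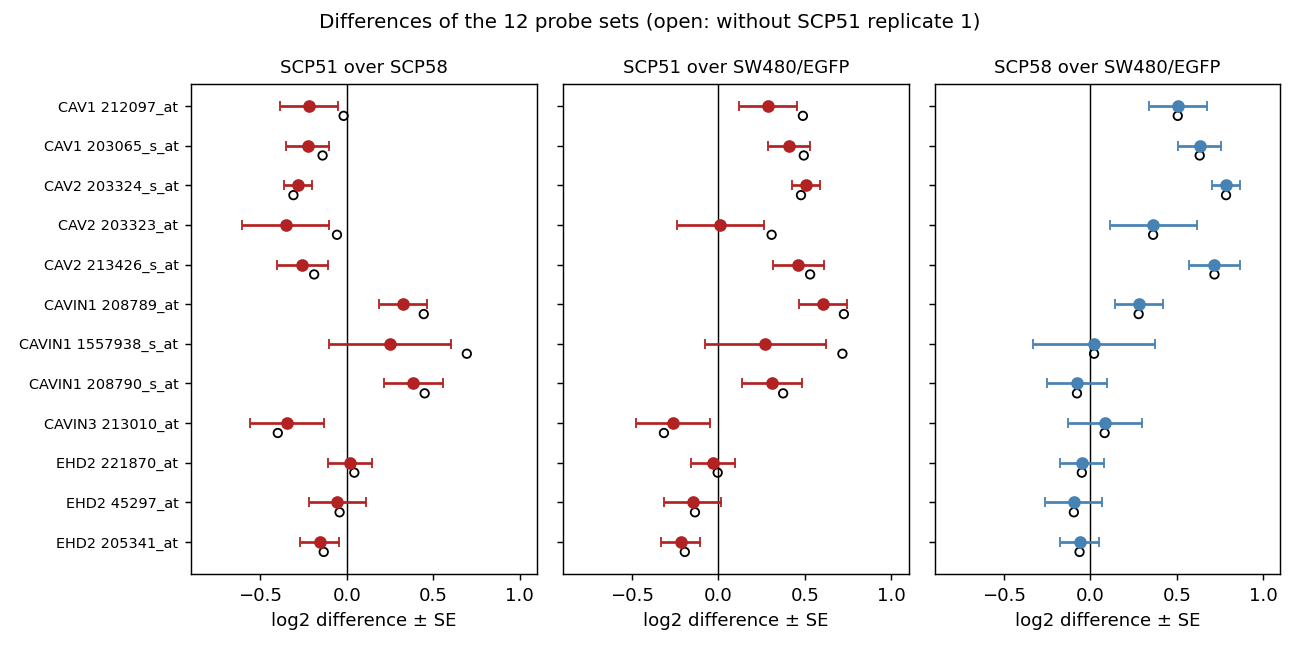
Log2 difference ± SE (limma) of the 12 probe sets for SCP51 over SCP58, SCP51 over SW480/EGFP and SCP58 over SW480/EGFP, with open circles for the difference of means without SCP51 replicate 1. In the first panel the 5 caveolin probe sets lie left of 0 and the 3 CAVIN1 probe sets right of it, and in the third the caveolin probe sets lie from 0.36 to 0.79.

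The level of CAVIN1 relative to the caveolins, a quantity chosen after the values were seen, does not depend on the scaling of an array. It was taken on each array as the mean log2 signal of the 3 CAVIN1 probe sets minus that of the 5 CAV1 and CAV2 probe sets, and only its differences between groups have a meaning. It was -1.07, -0.85 and -0.78 in SCP51, -1.61, -1.28 and -1.57 in SCP58, and -1.17, -0.82 and -0.88 in SW480/EGFP. SCP58 lay wholly below the other groups, which overlapped each other. The mean was -0.90 ± 0.15 in SCP51, -1.49 ± 0.18 in SCP58 and -0.96 ± 0.19 in SW480/EGFP (SD, n = 3 each), so that CAVIN1 relative to the caveolins was 1.5-fold higher in SCP51 than in SCP58, a difference of 0.59. Without SCP51 replicate 1 that difference was 0.67. SCP58 differed from SW480/EGFP by -0.53, and SCP51 from SW480/EGFP by 0.06, or 0.15 without SCP51 replicate 1, with overlap in both cases. With only the probe sets 208789_at and 203065_s_at, the differences were 0.55 for SCP51 relative to SCP58, 0.20 with overlap for SCP51 relative to SW480/EGFP, and -0.35 for SCP58 relative to SW480/EGFP. This pair joins the brightest CAVIN1 probe set to the dimmer of the CAV1 ones, and its overlap holds for this pair only. By the signals given above, 208789_at relative to the brighter CAV1 probe set, 212097_at, was higher on every SCP51 array than on every SW480/EGFP array. Whether SCP51 and SW480/EGFP separate on this measure thus depends on the probe sets taken. On its own, 212097_at differed less between SCP51 and SW480/EGFP (0.29, against 0.41 for 203065_s_at).

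**Figure D4:**
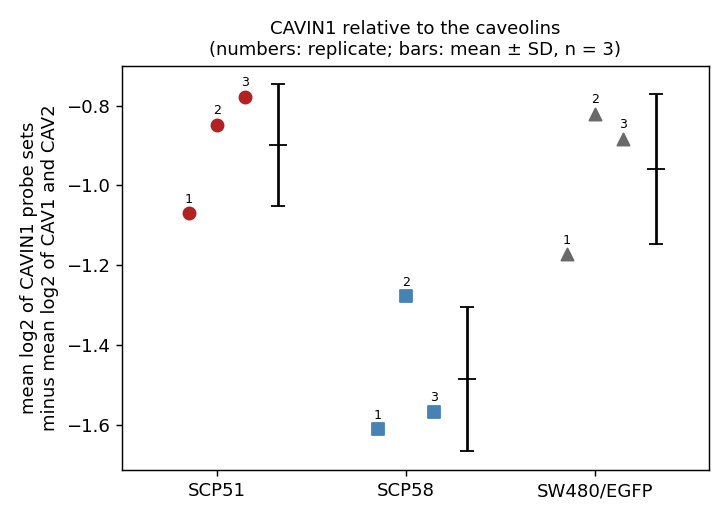
Mean log2 signal of the CAVIN1 probe sets minus that of the CAV1 and CAV2 probe sets on each array, with the mean ± SD (n = 3) of SCP51, SCP58 and SW480/EGFP. The 3 SCP58 arrays lie from -1.61 to -1.28, below all 6 others.

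The genes whose log2 signal over the 9 arrays was most like that of each member were named by Pearson's r, as a description, since the arrays share 3 lines. For CAV1 (212097_at) they were NUP93, FTSJ3 and PIGO, with r of 0.95, 0.95 and 0.95. For CAV2 (203324_s_at) they were GYG1 at 0.98, ZDHHC4 at 0.97 and MAML2 at 0.96, each with its highest mean in SCP58 and its lowest in SW480/EGFP. MAML2, a coactivator of Notch signalling, had mean log2 signals of 7.03 in SCP51, 7.41 in SCP58 and 6.22 in SW480/EGFP. For CAVIN1 (208789_at) they were TRIM52 at 0.98, UXS1 at 0.98 and the receptor gene EGFR at 0.97. EGFR had mean log2 signals of 8.44 in SCP51, 8.20 in SCP58 and 7.94 in SW480/EGFP, the same order as CAVIN1 on 208789_at. In each comparison only 3 of the 5 EGFR probe sets tested shared the sign of this one. On 208790_s_at CAVIN1 was lowest in SCP58, at 7.38, against 7.45 in SW480/EGFP. For CAVIN3 they were EPS15L1, FBXO27 and FBXO43 (0.95, 0.94 and 0.93), and for EHD2 (221870_at) LINC02380, DNHD1 and ZBTB7B (0.97, 0.96 and 0.95).

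The genes next to each member were read from the RefSeq gene order, 3 measured genes on each side. Around CAV1 and CAV2, 6 neighbours had log2 differences between -1.21 and 0.39 for SCP51 relative to SCP58, and between -0.19 and 0.41 for SCP58 relative to SW480/EGFP. MET, the receptor of hepatocyte growth factor and the next measured gene beyond CAV1, had signals of 1061, 1252 and 1072 in SCP51, 927, 712 and 967 in SCP58, and 698, 663 and 681 in SW480/EGFP. It was higher in SCP51 than in SW480/EGFP, by 0.73 ± 0.14 (limma adjusted p = 0.0427, from 0.0296 to 0.159 over 17 alternatives). Its call was lost without SCP51 replicates 2 or 3 (0.146 and 0.0663), without SW480/EGFP replicates 1, 2 or 3 (0.14, 0.14 and 0.159) and without SCP58 replicates 1 or 3 (0.0542 and 0.0551). It was also lost without a filter (0.0608) and when just the 6 arrays compared were fitted (0.0585). MDFIC, a regulator of transcription factors on the other side, gave 103, 75 and 60.0 in SCP51, 134, 196 and 219 in SCP58, and 148, 134 and 125 in SW480/EGFP. It was lower in SCP51 than in SCP58, at -1.21 ± 0.24 (limma adjusted p = 0.0335, from 0.00936 to 0.136). That call was lost without SCP51 replicates 2 or 3 (0.111 and 0.0689), without SW480/EGFP replicates 1, 2 or 3 (0.0604, 0.0552 and 0.0685) and without SCP58 replicates 2 or 3 (0.136 and 0.106). It was also lost without a filter (0.0533) and when just the 6 arrays compared were fitted (0.117). The neighbours TES and CAPZA2 were not called, at -0.16 ± 0.19 and -0.30 ± 0.21 for SCP51 relative to SCP58. Of the 18 neighbours of CAVIN1, CAVIN3 and EHD2, 0 were called in any comparison. Of all 13598 genes tested, 3.48% were called between SCP51 and SCP58, 2.19% between SCP51 and SW480/EGFP and 0.125% between SCP58 and SW480/EGFP. Nothing is read from so few neighbours.

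Among other proteins of the caveola and of endocytosis, EPN3 was lower in SCP51 than in both other groups, and PRKCA was higher in SCP51 than in SW480/EGFP. EPN3, an epsin that bends membrane at clathrin pits, had signals of 40.9, 20.4 and 22.7 in SCP51, 134, 94.6 and 109 in SCP58, and 94.3, 112 and 103 in SW480/EGFP. It was lower by a log2 difference of -2.06 ± 0.25 relative to SCP58 (limma adjusted p = 0.00811) and -1.95 ± 0.25 relative to SW480/EGFP (adjusted p = 0.00911). The SCP51 signals lay under the array medians, and with 32 added before log2 the differences were -1.27 and -1.18. The first call was lost in a fit of only the 6 arrays compared (adjusted p = 0.0516, the highest of 17 alternatives, the lowest being 0.000794). The second was lost without SW480/EGFP replicates 2 or 3 (0.054 and 0.0503), and its lowest adjusted p was 0.000504. PRKCA encodes protein kinase C alpha, reported to bind caveolin-1, and had signals of 287, 303 and 338 in SCP51, 202, 243 and 252 in SCP58, and 148, 189 and 189 in SW480/EGFP. It was higher in SCP51 than in SW480/EGFP, by 0.83 ± 0.15 (limma adjusted p = 0.0354, from 0.0134 to 0.133), and 2 of its 3 probe sets shared that sign. The call was lost without SCP51 replicates 2 or 3 (0.108 and 0.0762), without SW480/EGFP replicates 1, 2 or 3 (0.133, 0.0916 and 0.106) and without SCP58 replicates 2 or 3 (0.0675 and 0.0547). It was also lost without a filter (0.0524) and when just the 6 arrays compared were fitted (0.0819).

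These were the only calls in 5 lists, which hold 69 listed genes, of which 59 were tested. For SCP51 relative to SCP58, 0 were called higher and 1 lower (1.69%), against 3.48% called of all 13598 genes tested, each by its brightest probe set. There 14 (23.7%) had an unadjusted p under 0.05, against 20.8% of all genes, and the median log2 difference was -0.11 in both. For SCP51 relative to SW480/EGFP, 1 was called higher and 1 lower (3.39%), against 2.19% of all genes called. There 20 (33.9%) had an unadjusted p under 0.05, against 19.2% of all genes, and the median was -0.12, against -0.10. For SCP58 relative to SW480/EGFP, 0 were called, against 0.125% of all genes. There 5 (8.47%) had an unadjusted p under 0.05, against 8.29%, and the median was 0.06, against a value near 0.

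Among other genes of the caveolar coat and neck, 7 of 10 passed the filter and 0 were called in any of the 3 comparisons. CAVIN2, CAVIN4 and EHD3 did not pass it. PACSIN2, which bends membrane at the caveolar neck and was the brightest of them, averaged signals of 1191 ± 103 in SCP51, 1197 ± 76.4 in SCP58 and 1082 ± 170.1 in SW480/EGFP (SD, n = 3 each). CAV3, EHD4, PACSIN3 and ROR1 were chosen after their values were seen. The muscle caveolin CAV3 averaged 46.5 ± 5.66 in SCP51, 48.7 ± 7.01 in SCP58 and 51.1 ± 3.75 in SW480/EGFP, close to the array median. EHD4, a relative of EHD2, averaged 1024 ± 44.4 in SCP51, 815 ± 92.9 in SCP58 and 859 ± 117 in SW480/EGFP. PACSIN3, a relative of PACSIN2, had signals of 25.1, 282 and 352 in SCP51 and at least 442 in SCP58 and SW480/EGFP. ROR1, a receptor reported to bind CAVIN1 and caveolin-1, had 215 on SCP51 replicate 1 and at most 56.0 on the other arrays.

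In the remaining lists the brightest genes were not called. ERLIN1, a scaffold of membrane rafts, averaged 1908 ± 196 in SCP51, 1519 ± 256 in SCP58 and 1431 ± 44.8 in SW480/EGFP, and 0 of 7 flotillin and raft genes were called. The SRC-family kinase YES1 averaged 1247 ± 86.9 in SCP51, 1564 ± 104 in SCP58 and 1471 ± 38.6 in SW480/EGFP, and 0 of 13 tested genes of caveola scission and trafficking were called. Of 21 tested clathrin genes, EPN3 was the 1 called. The heavy chain CLTC, the brightest of them, averaged 4696 ± 605 in SCP51, 4568 ± 603 in SCP58 and 3805 ± 126 in SW480/EGFP. Of 11 tested genes for receptors and enzymes reported to bind caveolin-1, PRKCA was the 1 called. Over all lists and comparisons, the lowest median was that of these binding partners for SCP51 relative to SCP58, at -0.31, against -0.11 for all genes. The highest was that of the 7 tested coat and neck genes for SCP51 relative to SW480/EGFP, at 0.15, against -0.10. Both are extremes picked from short lists, and nothing is read from them.

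**Figure D5:**
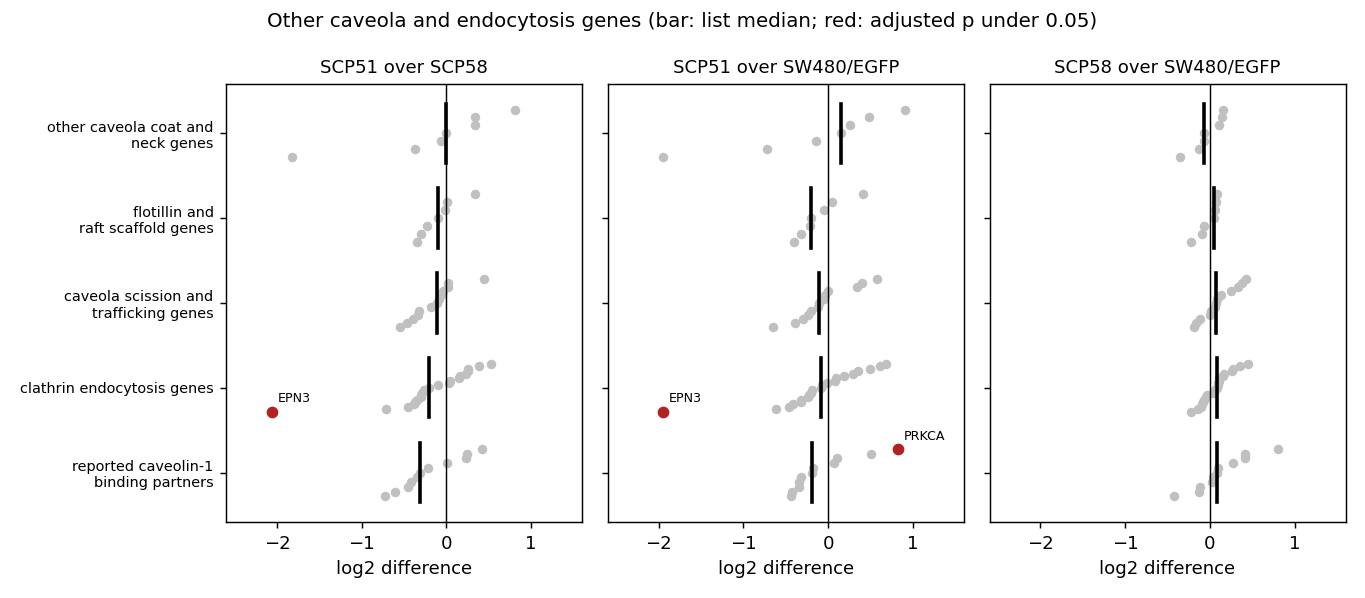
Log2 difference of each tested gene in 5 lists of other caveola and endocytosis genes for SCP51 over SCP58, SCP51 over SW480/EGFP and SCP58 over SW480/EGFP, with a bar at each list's median. Called genes (limma adjusted p under 0.05) are red: EPN3 at -2.06 and -1.95, and PRKCA at 0.83.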

How the data were processed

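RNA of 9 samples was measured on Affymetrix arrays, 3 each of SCP51, SCP58 and SW480/EGFP. The deposited value of each probe set is a linear intensity that the authors made with GCOS 1.4, per the submitters' processing notes; its scaling target, background method and probe summary were not given in the sources used here. Intensities were floored at 1 and put on a log2 scale without rescaling. Control probe sets (62) were left out, and 29166 probe sets above their array's median on at least 3 arrays went into a limma fit (limma 3.58.1, R 4.3.3): 1 mean per group, all 9 arrays, variances with an intensity trend, Benjamini-Hochberg adjustment over all probe sets, and a call at an adjusted p under 0.05. Every SE and adjusted p is from this fit, in which each probe set counts by itself. A gene outside the 5 described is represented by its brightest probe set with 1 symbol. Symbols were updated through Entrez identifiers in a RefSeq table (GRCh38.p14), which also gave gene order; promoter sequences are from RefSeq, where 3 of the 5 genes matched. The array annotation gives 41091 probe sets 1 symbol, 1801 several and 11721 none. No detection calls were used, and the number of arrays limits the precision.

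The 5 genes, the gene lists and the tests were chosen with earlier results of these data known. Named genes are the called genes and the brightest genes of each list, up to 3 genes most alike to each member, and measured neighbours; others are said to be chosen after their values were seen. Alternatives were no filter, quantile normalization, centring on the 75th percentile, 32 added before log2, no intensity trend, 1 probe set per gene, the replicate number as a block, only the 6 arrays compared, and each array left out. Figures were drawn with matplotlib 3.10.9.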

Additional observations from a re-analysis of the deposited data

How the results depend on the processing

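Of 591 alternative values for the 12 probe sets, 586 moved by less than the spread between replicates, 5 moved further, and 0 of the called ones changed sign. Many of the 586 could not move, so this count does not measure stability. A log2 difference stays the same without a filter or trend, with 1 probe set per gene, and with the block. It also stays the same with only the 6 arrays compared, or without an array of the group not compared. The number of the 12 that were called stayed at 0 between SCP51 and SCP58 in all 17 alternatives. Between SCP51 and SW480/EGFP it was 2 after quantile normalization or 75th percentile centring, 0 with the replicate block, 0 with only the 6 arrays compared, and 0 to 3 with 1 array left out. Between SCP58 and SW480/EGFP it was 0 with the replicate block and 0 to 1 with 1 array left out. The cause was not tested. Deviations from group means correlated from -0.22 to 0.12 for equal replicate numbers and from -0.22 to 0.16 for unequal ones. With 3 arrays in each group, these values cannot decide whether a number marks a shared batch or culture, and the labels do not say. With the replicate block the probe sets called were 395 between SCP51 and SCP58, 226 between SCP51 and SW480/EGFP and 19 between SCP58 and SW480/EGFP. With only the 6 arrays compared, which leaves fewer samples, the first 2 were 149 and 283. With 1 probe set per gene, which leaves fewer features, the first was 555 and the last 19. Leaving out 1 array gave 177 to 1968, 151 to 986 and 0 to 98 calls. For the other caveola and endocytosis genes, calls between SCP51 and SCP58 were 2 with 1 probe set per gene, 0 with only the 6 arrays compared and 1 to 3 with 1 array left out. Between SCP51 and SW480/EGFP they were 1 without a filter, 1 with the replicate block, 1 with only the 6 arrays compared and 0 to 3 with 1 array left out. PRKCA and MET each lost their call in 10 of 17 alternatives, and so did MDFIC, among them the replicate block (adjusted p = 0.0503 for PRKCA, 0.116 for MET and 0.0891 for MDFIC). CAVIN3, CAV2 213426_s_at and EHD2 205341_at lay near the array median, where signal over background limits the size of a difference.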
